A study of Mus musculus with 12 samples.

Results

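The genes described here are 31 genes that mark Sertoli cells or are used as Sertoli cell genes in the testis, taken by gene name from the 54532 genes of the count table. RNA-seq was performed on sorted cells from newborn mouse testes carrying the Tg(Pou5f1-EGFP)2Mnn transgene, in which Pou5f1 (OCT4) sequence drives EGFP, so that GFP+ cells are germ cells and GFP- cells are the pooled somatic cells of the testis. Dams were injected with dexamethasone (dex), a synthetic agonist of the glucocorticoid receptor, at E17.5 and E18.5, and their pups at PN0, at 10 μg per g body weight. Controls received saline on the same days, and all testes were collected at PN1. This gave 4 groups of 3 libraries, named dex somatic, saline somatic, dex germ and saline germ. According to the methods of the study, the testes of at least 2 litters were pooled in a replicate, so a replicate is a pool and not an animal.

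Sertoli cells are the supporting cells of the seminiferous cord. They surround the prospermatogonia, secrete hormones such as AMH and inhibin, respond to FSH, and are specified in the fetal gonad by SOX9 acting with SOX8, WT1 and GATA4. Around birth they still divide, and their tight junctions and androgen response mature only later. A somatic library also holds Leydig, peritubular, stromal, endothelial and blood cells, so a lower value in somatic libraries can come from fewer Sertoli cells or from less RNA per cell, which cannot be told apart in bulk RNA. In germ libraries most of these genes had low counts, and the values there are given beside the germ to somatic ratio.

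Library totals ran from 18459692 to 25178477 counts. In somatic libraries the 31 genes took 0.904% to 1.08% of all counts, against 0.0193% to 0.0251% in germ libraries. The germ cell genes Ddx4, Dazl and Pou5f1 were 599 ± 27.0, 1177 ± 113 and 86.9 ± 4.23 CPM (counts scaled to library size) in saline germ cells (SD, n = 3) and 1.38 ± 0.358, 1.42 ± 0.524 and 0.200 ± 0.198 CPM in saline somatic cells. The sort separated the populations by these markers.

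Per gene length, Amh, the hormone that regresses the Müllerian duct, was the most abundant of the 31 genes in saline somatic cells at 1000 ± 101 FPKM (fragments scaled to gene length and library size; SD, n = 3). Inha, the alpha subunit of inhibin, followed at 785 ± 92.7 FPKM, then the secreted chaperone Clu at 573 ± 60.7 and Aard, an alanine- and arginine-rich protein, at 554 ± 14.6 FPKM. The libraries of Clu and Aard overlapped, so their order lies within their spread. The transcription factors covered a wide range of levels, from Rhox8 at 209 ± 53.1 and Gata4 at 160 ± 8.92 through Sox9 at 47.8 ± 3.76, Sox8 at 44.9 ± 2.04 and Wt1 at 32.8 ± 1.91 to Nr0b1 at 17.8 ± 3.62 FPKM. Fshr, the FSH receptor, stood at 22.2 ± 1.36 FPKM.

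The list name did not hold for every gene. The homeobox gene Rhox5 had 0.456 ± 0.243 CPM in saline somatic cells and 6.05 ± 2.45 CPM in saline germ cells, and transferrin (Trf), the iron carrier of mature Sertoli cells, had 0.591 ± 0.373 and 1.76 ± 0.243 CPM. Both were therefore near absent from these somatic cells and higher in the germ cells. Trf also shares 57.5% of its 64-base exon words with another gene model, Gm20425. Gata1, which besides Sertoli cells is the erythroid transcription factor, and the ubiquitin ligase Trim7 were low, at 1.99 ± 0.336 and 1.09 ± 0.169 FPKM. The summed erythroid marker genes were 85.4 to 299 CPM in dex somatic and 256 to 394 CPM in saline somatic libraries, and their part in the Gata1 value was not tested. Trim7 shares exon sequence with Gm12184, which had 3253 counts over all libraries against 1089 for Trim7.

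**Figure D1:**
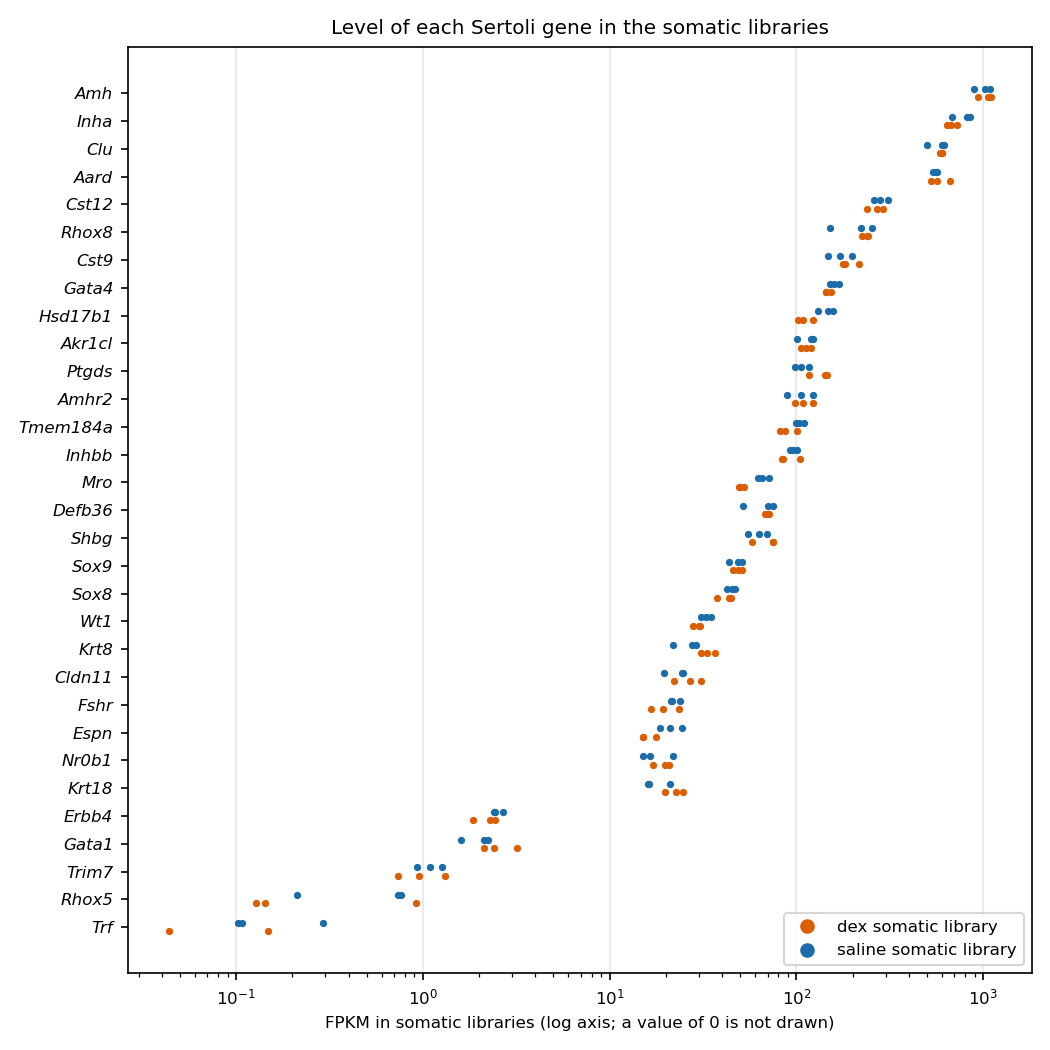
FPKM of the 31 Sertoli genes (y axis) in the 6 somatic libraries (x axis, log scale), blue for saline and orange for dex, 1 point per library. Amh tops the order at 1000 FPKM in saline, 5 genes lie under 3 FPKM, and dex and saline points overlap for most genes.

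The sequences upstream of the start sites were looked at for the members whose dex response passed a test below, because dex acts through a receptor that binds DNA. RefSeq promoter entries of GRCm38.p6 were found for 21 of the 31 genes, in 25 windows of 250 bases before a RefSeq start. That start can differ from the start of the counted gene. Of the called members, Espn, Inha, Akr1cl and Fshr have an entry. Letters searched on both strands are in capitals where they occur.

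Espn (chr4:152152390-152152639, minus strand): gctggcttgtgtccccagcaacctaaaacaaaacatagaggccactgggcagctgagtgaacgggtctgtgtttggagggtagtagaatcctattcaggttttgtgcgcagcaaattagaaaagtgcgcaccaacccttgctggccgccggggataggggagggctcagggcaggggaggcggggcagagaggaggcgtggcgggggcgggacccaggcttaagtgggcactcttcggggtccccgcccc
Inha (chr1:75507359-75507608, plus strand): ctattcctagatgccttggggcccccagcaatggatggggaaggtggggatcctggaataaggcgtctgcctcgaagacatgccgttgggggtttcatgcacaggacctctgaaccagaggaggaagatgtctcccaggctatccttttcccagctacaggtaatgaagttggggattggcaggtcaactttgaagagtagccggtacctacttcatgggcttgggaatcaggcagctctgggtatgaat
Akr1cl (chr1:65032760-65033009, minus strand): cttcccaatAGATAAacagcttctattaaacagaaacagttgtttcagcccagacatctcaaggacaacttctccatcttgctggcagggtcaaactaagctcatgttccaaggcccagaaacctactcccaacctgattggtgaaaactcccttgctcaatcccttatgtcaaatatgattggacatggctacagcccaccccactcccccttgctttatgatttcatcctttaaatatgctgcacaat
Fshr (chr17:89200676-89200925, minus strand): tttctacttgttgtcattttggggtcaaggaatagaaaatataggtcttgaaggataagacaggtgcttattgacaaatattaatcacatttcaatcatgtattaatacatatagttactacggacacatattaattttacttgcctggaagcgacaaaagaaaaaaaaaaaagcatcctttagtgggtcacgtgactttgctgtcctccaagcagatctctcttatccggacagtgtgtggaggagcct

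Of these 4 windows, that of Inha lies inside the counted Inha gene (chr1:75507077-75510366), so the bases before its annotated start were not searched. None of the 4 windows holds AGAACA, the glucocorticoid receptor half-site, which occurs in 16.1% of 32851 RefSeq windows of the same length. Among the 25 member windows it occurs in 3, those of Defb36, Rhox5 and Shbg, and Defb36 holds it at 2 positions, 209 and 160 bases before the start. The Rhox5 window (chrX:37754358-37754607) does not adjoin the counted Rhox5 gene, which starts at 37804842. The GATA letters AGATAA occur in 3 member windows (Akr1cl, Krt8 and Shbg) and in 9.99% of all windows; in Akr1cl they begin 241 bases before the start. The NR5A1 letters AAGGTCA occur in 1 (Amhr2), against 4.08% of all, and the SOX letters AACAAT in 2 (Erbb4 and Rhox5), against 9.42%; in Rhox5 they overlap the AGAACA match. A match describes letters in a window and is no evidence of binding.

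The first question was whether Sertoli genes responded to dex in the somatic cells that express them. Of the 31 genes, 30 passed the filter on low counts, all but Trf. Mro, Hsd17b1 and Espn were called lower in dex somatic cells by the quasi-likelihood test of edgeR at a Benjamini-Hochberg adjusted p of at most 0.05. These are 3 of 30 genes (10%), beside 1.17% of the 16766 genes tested that were called lower. By edgeR 0 members were called higher, beside 2.74% of all genes. By DESeq2 1 was, namely Ptgds, beside 600 of 16018 genes. An unadjusted edgeR p under 0.05 was found for 8 of the 30 in either direction, beside 2701 of the 16766 genes tested. The median log2 fold change of the 30 was -0.00428 and that of all genes -0.00664, and 15 genes lay on each side of 0.

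Mro (maestro, chr18:73859385-73881333, mm10), a gene expressed in Sertoli cells of the developing testis, had 246, 229 and 228 CPM in the dex somatic libraries and 305, 304 and 333 CPM in the saline somatic libraries. Every dex library was under every saline library. The log2 fold change was -0.40 (SE 0.0798, edgeR adjusted p = 0.00976, n = 3 per group). The call was kept in 4 of 6 fits that left out 1 library; without dex somatic replicate 3 or saline somatic replicate 3 the edgeR adjusted p was 0.0588 and 0.0674.

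Hsd17b1 (chr11:101078411-101080527), which encodes 17β-hydroxysteroid dehydrogenase type 1, a steroid-converting enzyme, had 153, 170 and 143 CPM in dex and 209, 192 and 219 CPM in saline somatic cells. These groups did not overlap either, and the log2 fold change was -0.39 (SE 0.0922, edgeR adjusted p = 0.0265). Espn (chr4:152120331-152152371), the actin-bundling protein espin of Sertoli junctions, had 153, 128 and 131 CPM in dex and 213, 168 and 183 CPM in saline. Its log2 fold change was -0.43 (SE 0.104, edgeR adjusted p = 0.0294), again without overlap. Each of these calls was kept in 2 of 6 fits with 1 library left out. Hsd17b1 lost it without dex somatic replicate 1 or 3 or saline somatic replicate 1 or 3 (edgeR adjusted p of 0.0949, 0.158, 0.118 and 0.14). Espn lost it without dex somatic replicate 2 or 3 or saline somatic replicate 1 or 3 (0.136, 0.144, 0.169 and 0.0981). On FPKM with limma, Hsd17b1 and Espn did not pass (adjusted p = 0.123 and 0.152).

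**Figure D2:**
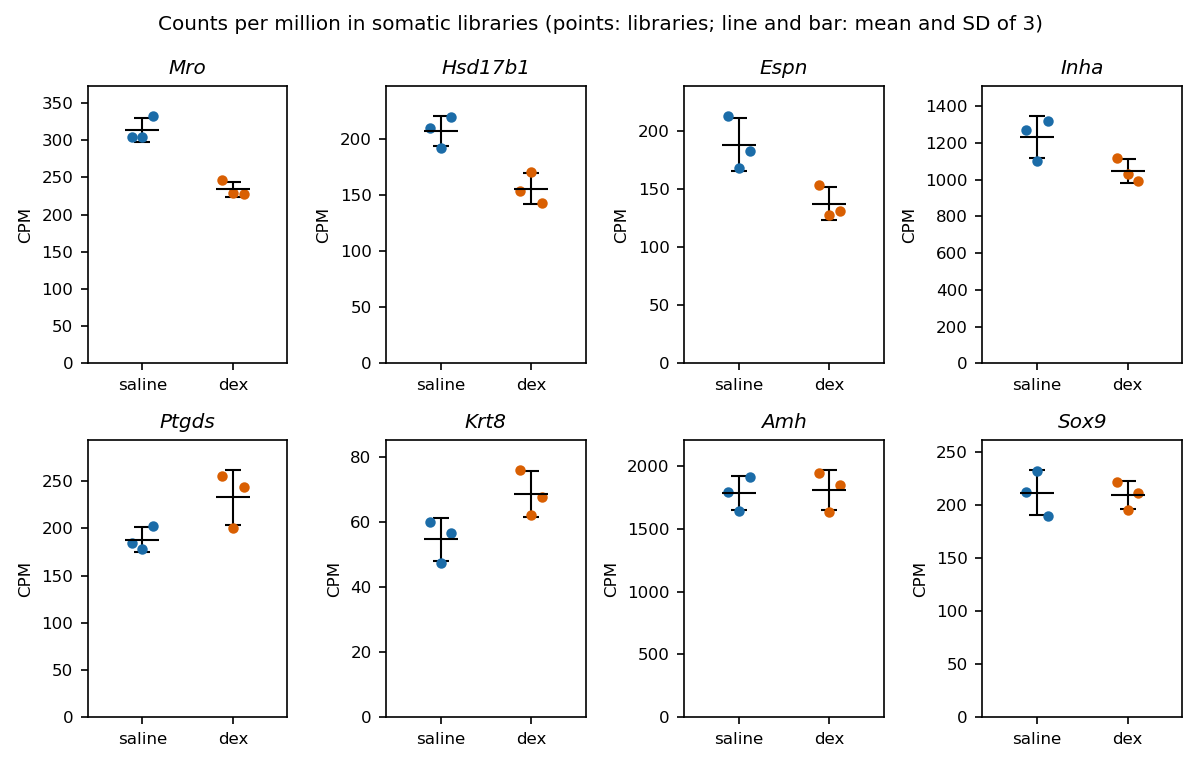
CPM in saline and dex somatic libraries (x axis) for 8 Sertoli genes, with points for libraries and a line and bar for the mean and SD of 3. Mro, Hsd17b1 and Espn separate by treatment, Krt8 separates in the other direction without being called, and Amh and Sox9 overlap.

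The hormones and secreted signals did not pass the test. Amh had 1940, 1630 and 1850 CPM in dex and 1790, 1640 and 1910 CPM in saline somatic cells, ranges that overlap nearly in full. Its log2 fold change was 0.05 (SE 0.0934, edgeR adjusted p = 0.871); with library totals in place of TMM scaling it was -0.01. Inha had 1120, 1030 and 991 CPM in dex and 1270, 1100 and 1320 CPM in saline, and its log2 fold change of -0.21 (SE 0.0934) had an edgeR adjusted p of 0.273. Without saline somatic replicate 2, that p was 0.0367. Inhbb, the beta B subunit of inhibin B and activin B, lay at -0.08, with an edgeR adjusted p of 0.719. Ptgds, which makes prostaglandin D2, had 255, 200 and 244 CPM in dex and 184, 178 and 202 CPM in saline somatic cells, with one dex library inside the saline range. Its log2 fold change was 0.34 (SE 0.0979, edgeR adjusted p = 0.0773), and the adjusted p was 0.0229 with DESeq2 and 0.0266 without dex somatic replicate 2. The beta-defensin Defb36 had 34.1 ± 1.25 and 32.8 ± 5.34 CPM.

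Among the receptors, Fshr had 42.3, 50.2 and 36.3 CPM in dex and 46.4, 49.4 and 51.7 CPM in saline somatic cells, which overlapped (log2 fold change -0.17, SE 0.126, edgeR adjusted p = 0.575). Amhr2, the AMH receptor, had 230 ± 28.4 and 225 ± 30.6 CPM. Erbb4, the neuregulin receptor, had 28.2 ± 4.20 and 33.0 ± 2.84 CPM, with a log2 fold change of -0.20.

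The 8 transcription factors did not pass the test either. Sox9, the factor that specifies Sertoli cells, had 221, 195 and 211 CPM in dex and 212, 232 and 189 CPM in saline somatic cells (log2 fold change 0.01, SE 0.0823, edgeR adjusted p = 0.961). The dex range lay inside the saline range. With library totals the value was -0.04. Its relative Sox8 lay at -0.10 and Gata4 at -0.12 on the log2 scale. Wt1 had 199, 179 and 195 CPM in dex and 213, 237 and 201 CPM in saline somatic cells, which did not overlap, though the log2 fold change of -0.16 (SE 0.0783) had an edgeR adjusted p of 0.347. Nr0b1 (DAX1) had 36.3 ± 3.82 and 34.4 ± 6.73 CPM, and Rhox8 296 ± 14.4 and 268 ± 62.0 CPM. The lowest and the highest log2 fold change of the 30 genes were those of the weakly expressed Rhox5 at -0.52 (SE 0.959) and Gata1 at 0.36 (SE 0.269).

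Secreted transport and protease-inhibitor genes ranged from -0.09 to 0.15 on the log2 scale. Clu had 2190, 2090 and 2160 CPM in dex and 2230, 1910 and 2160 CPM in saline (log2 fold change 0.06, edgeR adjusted p = 0.818; -0.0013 with library totals). Shbg, the androgen-binding protein, and the cystatins Cst9 and Cst12 lay at 0.14, 0.15 and -0.09. Of the cytoskeletal genes, Krt8, which pairs with Krt18 in the filaments of immature Sertoli cells, had 76.0, 62.2 and 67.5 CPM in dex and 60.1, 47.3 and 56.7 CPM in saline. Krt8 shares 26.2% of its exon words, mainly with Krt8-ps. It was the only member whose dex libraries all lay above the saline libraries, and 9.38% of all genes did so. Its log2 fold change was 0.35 (SE 0.121, edgeR adjusted p = 0.141), and Krt18 lay at 0.33 (adjusted p = 0.256). Cldn11, the tight junction claudin of Sertoli cells, lay at 0.22.

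In somatic cells, 5 of the 30 members tested had all dex somatic libraries under all saline somatic libraries, which are Mro, Hsd17b1, Espn, Wt1 and Tmem184a. This was so for 12% of all genes. Tmem184a, a transmembrane protein of Sertoli cells, had 563, 445 and 479 CPM in dex and 611, 575 and 571 CPM in saline (log2 fold change -0.21, edgeR adjusted p = 0.243). Its exons overlap those of Mafk, whose counts were 45% of those of Tmem184a, and without a stated strand setting their reads cannot be told apart. The remaining members had overlapping groups: Akr1cl, an aldo-keto reductase, had 495 ± 22.2 and 512 ± 40.4 CPM, Aard 825 ± 112 and 798 ± 39.6 CPM, and Trim7 7.91 ± 2.40 and 8.85 ± 1.19 CPM.

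**Figure D3:**
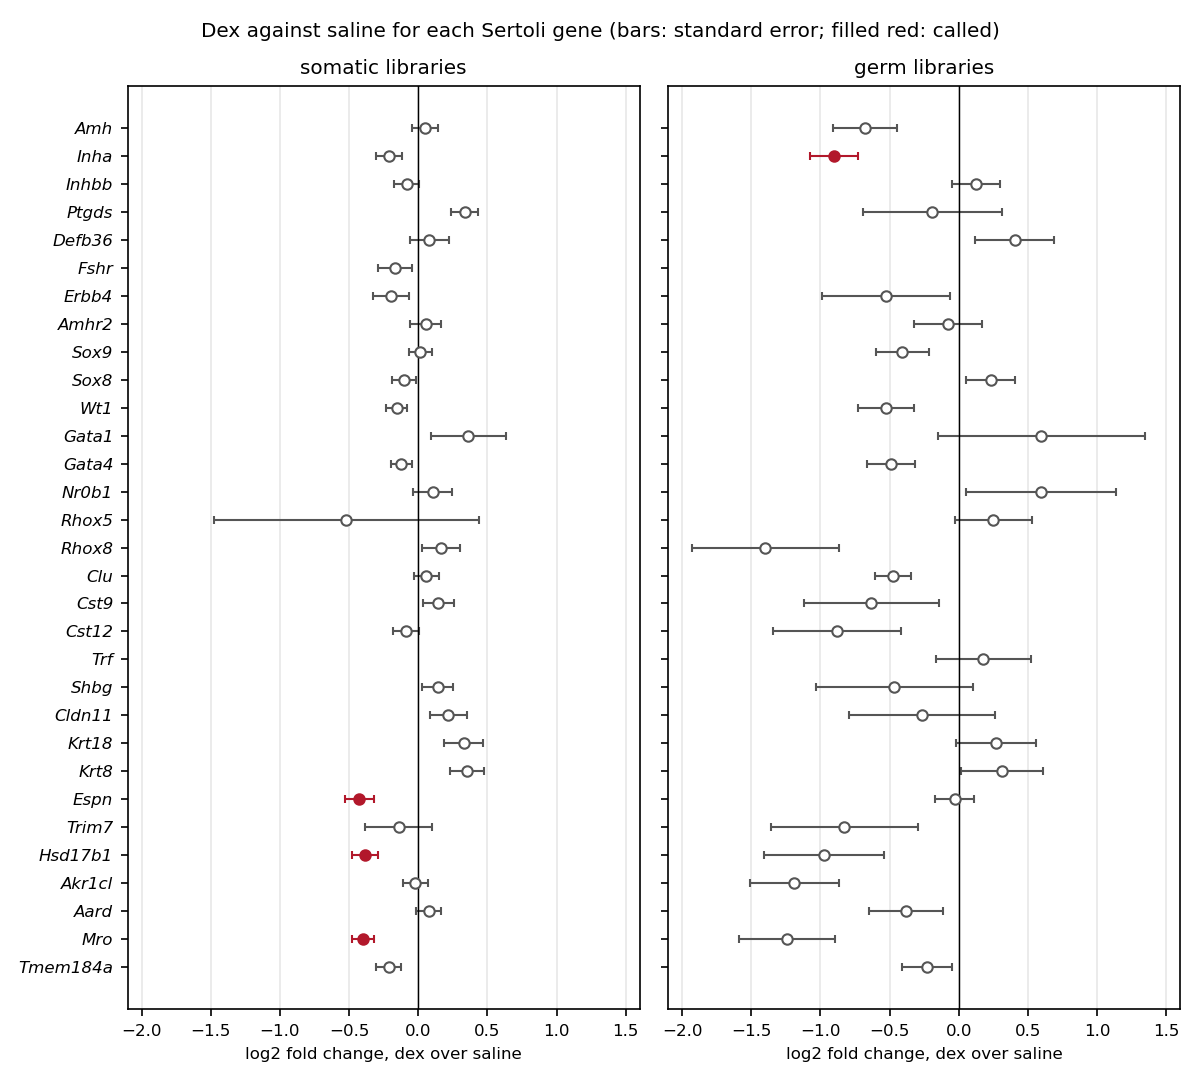
Log2 fold change of dex over saline (x axis, bars are standard errors) for the Sertoli genes ordered by role (y axis), in somatic libraries on the left and germ libraries on the right; filled red points are called. Somatic values sit on both sides of 0 with Mro, Hsd17b1 and Espn called, while 21 of 30 germ values lie under 0 with Inha called. Trf was not tested in somatic and Fshr not in germ libraries.

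Markers of other cell types were counted in the same somatic libraries. The 12 peritubular and stromal markers summed to 12370 to 14510 CPM in dex and 7955 to 11020 CPM in saline somatic libraries, and 5 of the 12 tested were called higher. These are Des (log2 1.13, edgeR adjusted p = 3.97e-05), Col1a1 (0.82, 0.000282), Dcn (0.72, 0.000986), Acta2 (0.44, 0.00367) and Pdgfra (0.50, 0.0132). Of 8 Leydig markers tested, 1 was called lower, the cholesterol transporter Star (-0.69, edgeR adjusted p = 0.0102), and the list summed to 347 to 465 CPM in dex and 425 to 545 CPM in saline. The macrophage markers summed to 25.2 to 37.6 CPM in dex and 60.4 to 106 CPM in saline, with 4 of 9 called lower (Lyz2, Csf1r, Cx3cr1 and Mrc1). Endothelial markers had 1 of 8 called lower (Tek) and summed to 254 to 330 and 262 to 294 CPM, and of 4 erythroid markers tested Hbb-bs and Hbb-bt were called lower. Germ cell markers summed to 8.83 to 9.28 CPM in dex and 10.0 to 10.9 CPM in saline somatic libraries. The 31 Sertoli genes summed to 9770 to 11080 and 10300 to 11090 CPM, which overlap. The part of these other markers in the Sertoli values was not tested.

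Further genes of Sertoli pathways were counted in somatic cells from lists that do not contain the 31. Of 19 other supporting cell genes tested, Gdnf, the niche factor for spermatogonia, was called lower (log2 -0.35, edgeR adjusted p = 0.0495), and the median was -0.10. Nr5a1, which activates Amh, and Dhh, which signals to Leydig cells, had 409 ± 23.3 and 103 ± 8.90 CPM in dex and 421 ± 10.1 and 122 ± 8.99 CPM in saline. In the activin, inhibin and AMH pathway 2 of 18 were called higher, the inhibin co-receptor Tgfbr3 (0.92, 0.000246) and the activin A subunit Inhba (0.51, 0.00777). Both also occur outside Sertoli cells. Of 15 junction genes, 2 were called lower, the gap junction gene Gja1 (-0.36, 0.0309) and the integrin Itga6 (-0.35, 0.0146). Among 13 FSH and androgen response genes, Fos was called higher (0.80, 0.00277) and Prkar2b, a protein kinase A subunit, lower (-0.29, 0.0424). Of 7 granulosa genes tested, Wnt4 was called higher (0.87, 0.000826) and Esr2 lower (-0.79, 0.0235). Foxl2, which defines granulosa cells, had 0.666 ± 0.421 CPM in dex and 0.892 ± 1.06 CPM in saline somatic cells.

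The second question was what the same genes showed in the sorted germ cells. In saline, 28 of the 31 were called lower in germ than in somatic cells, beside 36.7% of the 18870 genes tested, and the median log2 difference was -6.00 against 0.07 over all genes. Rhox5 (3.73, edgeR adjusted p = 1.92e-05) and Trf (1.56, 0.0187) were called higher, beside 39.8% of all genes. Both passed the count filter only through the germ libraries, so their calls are given as a description. Their saline somatic counts were 12, 4 and 12 for Rhox5 and 7, 9 and 21 for Trf. The Trf call was lost without saline germ replicate 1 or 2 or saline somatic replicate 1 or 2, with an edgeR adjusted p of up to 0.0673. Krt18 was not called (-0.49, edgeR adjusted p = 0.0806), with 15.9, 13.7 and 28.8 CPM in saline germ and 24.3, 25.7 and 31.8 CPM in saline somatic libraries. Without saline germ replicate 3 the difference was -0.92 and passed (adjusted p = 0.000833).

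As a measure of carry-over, each germ library was set against the mean of the somatic libraries of the same treatment. RNA carried over in a fixed share would give all somatic genes the same ratio. In saline germ libraries the ratio of 19 members lay under 3%, from 0.586% for Rhox8 to 2.12% for Inhbb, with a median of 1.11%. They include Amh (0.677% ± 0.112), Inha (1.16% ± 0.201), Clu (1.31% ± 0.169), Fshr (1.07% ± 0.260) and Gata4 (1.56% ± 0.139). A further 7 lay between 3% and 15%, among them Sox9 (3.62% ± 0.465), Wt1 (4.55% ± 0.547), Sox8 (5.34% ± 0.457) and Defb36 (9.04% ± 2.58). The exons of Sox8 overlap those of 2810468N07Rik, whose counts over all libraries were 14.9% of those of Sox8. The part of this gene in the Sox8 values was not tested. Krt8 (15.1% ± 7.25), Espn (24.1% ± 1.58) and Krt18 (71.4% ± 29.9) lay between 15% and 100%, and Rhox5 and Trf above. The limits of 3%, 15% and 100% were set after the values were seen. For comparison, the summed peritubular and stromal markers had a ratio of 1.55% ± 0.232 and the summed Leydig markers 27.5% ± 0.945 in saline germ libraries. Most of the Leydig sum came from Scarb1 and Fdx1, at 89.7 and 32.1 CPM in saline germ and 279 and 38.3 CPM in saline somatic cells. The steroidogenic genes Cyp17a1, Hsd3b1 and Cyp11a1 had 1.25, 1.19 and 1.23 CPM in saline germ and 39.3, 45.5 and 25.7 CPM in saline somatic cells. So 3 genes, Espn, Krt18 and Krt8, made up 32.7% of the summed member CPM of saline germ cells, and the 19 genes under 3% made up 49.8%.

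**Figure D4:**
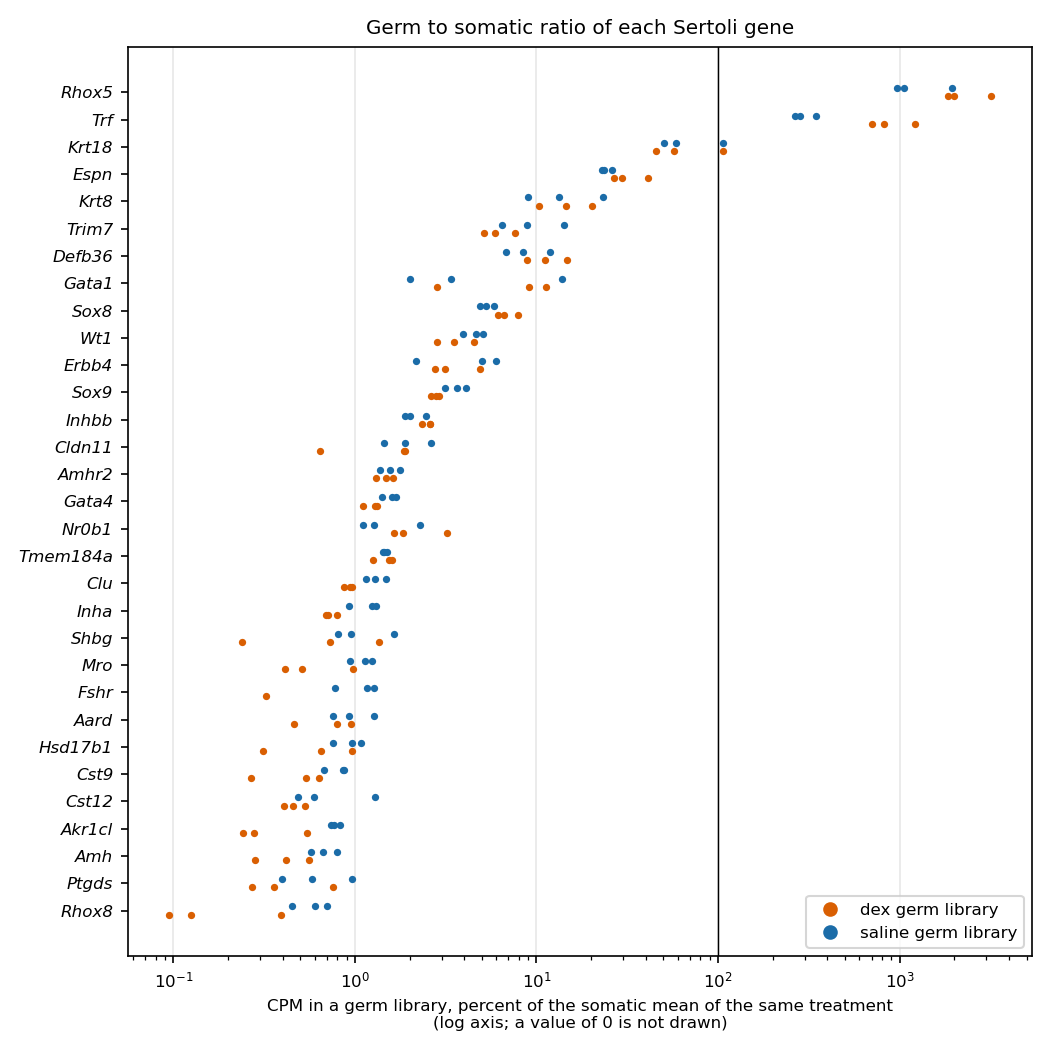
CPM of each Sertoli gene in a germ library as percent of the somatic mean of the same treatment (x axis, log scale), blue for saline and orange for dex germ libraries, genes ordered by their saline mean (y axis). The 19 lowest genes lie between 0.586% and 2.12% in saline, and Rhox5 and Trf lie right of the line at 100%; the 2 dex libraries without an Fshr count are not drawn.

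Dex lowered 1 member by the test in germ cells. Inha (chr1:75507077-75510366) had 8.31, 7.40 and 7.27 CPM in dex germ and 11.4, 15.3 and 16.1 CPM in saline germ libraries, from 180, 200 and 156 against 261, 293 and 337 counts. No library overlapped, and the log2 fold change was -0.90 (SE 0.176, edgeR adjusted p = 0.0233, n = 3 per group). The call was kept in 3 of 6 fits with 1 library left out; without dex germ replicate 3, saline germ replicate 2 or saline germ replicate 3 the adjusted p was 0.0856, 0.111 and 0.0625, and on FPKM with limma it was 0.0915. Of the 18550 genes tested in germ cells, 0.507% were called lower. As the ratio shows, its level in germ cells was 0.732% ± 0.0541 of that in somatic cells under dex and 1.16% ± 0.201 under saline. Within a library, Inha was 82.6%, 145% and 95.7% of the Amh count under dex and 112%, 108% and 135% under saline, and these ranges overlap.

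Several other members had lower germ values in dex that did not pass the test. Amh had 10.1, 5.11 and 7.59 CPM in dex and 10.2, 14.1 and 11.9 CPM in saline germ libraries, and each dex library was under each saline library (log2 fold change -0.68, SE 0.228, edgeR adjusted p = 0.167). By FPKM the Amh groups overlapped, with 6.19 in dex germ replicate 1 and 6.15 in saline germ replicate 1. Clu had 20.1, 18.8 and 20.6 CPM against 24.2, 31.2 and 27.0 CPM (-0.48, SE 0.131, adjusted p = 0.0893). Mro had 1.2, 0.962 and 2.28 CPM against 2.94, 3.91 and 3.58 CPM (-1.24, SE 0.347, adjusted p = 0.0978). By CPM no dex library of these genes reached the saline range, but the edgeR adjusted p stayed above 0.05 in each. In all, 10 of the 30 members tested had every dex germ library under every saline germ library, while 9.55% of all genes did. They are Amh, Inha, Clu, Mro, Akr1cl, Hsd17b1, Rhox8, Gata4, Sox9 and Tmem184a. Of the 30, 21 had a log2 fold change under 0 (70%), beside 50.4% of all genes, and the median was -0.39 against -0.00273. With no filter on low counts 5 were called lower, beside 401 of 33910 genes, and with DESeq2 4, beside 325 of 14842 genes.

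The dex effect in germ cells was then set beside the ratio classes. Summed over the 19 genes under 3%, dex germ libraries had 85.2, 66.7 and 86.1 CPM and saline germ libraries 99.5, 122.9 and 112 CPM, which is 0.894%, 0.7% and 0.903% of the somatic sum in dex and 1.01%, 1.25% and 1.13% in saline. The ratio was lower in dex for 16 of these 19 genes, and their median ratio was 0.732% in dex. For the 7 genes between 3% and 15% it was lower in 4. Genes of a class come from the same libraries and are not independent, and this count was not made over all genes. Espn had 36.5, 40.7 and 56.6 CPM in dex and 48.7, 43.1 and 44.3 CPM in saline germ cells, which overlapped, although Espn was called lower in somatic cells. Sox8 had 9.44 ± 1.24 and 7.99 ± 0.685 CPM. Inhbb, also under 3%, had 10.5, 9.48 and 10.5 CPM in dex and 8.81, 8.24 and 10.8 CPM in saline germ libraries. The summed peritubular and stromal markers had overlapping germ levels, 145 to 153 CPM in dex and 125 to 167 CPM in saline; their ratio was 1.10% ± 0.0287 and 1.55% ± 0.232, over a somatic sum that was higher in dex. Of the peritubular and stromal markers, 11 were tested in germ cells, with a median log2 fold change of 0.23 and 0 called. Of the Leydig markers, 6 were tested in germ cells, with a median log2 fold change of -0.57, from -1.20 for Cyp17a1 to 0.02 for Scarb1. Their summed ratio, mostly Scarb1 and Fdx1, was 33.6% ± 1.67 in dex and 27.5% ± 0.945 in saline. The share of somatic RNA in a germ library was not measured apart from such ratios, and its part in the lower germ values was not tested.

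**Figure D5:**
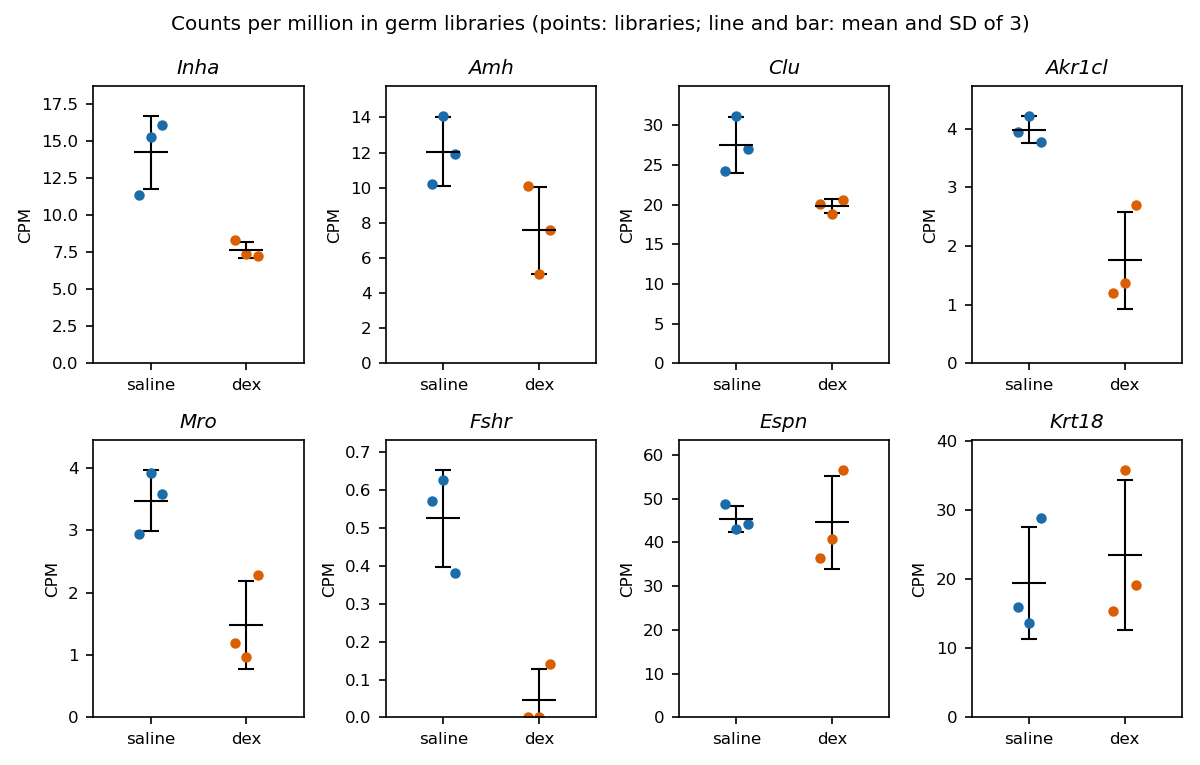
CPM in saline and dex germ libraries (x axis) for 8 Sertoli genes, with points for libraries and a line and bar for the mean and SD of 3. Inha, Amh, Clu, Akr1cl, Mro and Fshr have every dex library under every saline library, while Espn and Krt18 overlap.

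The third question was whether the dex effect differed between both populations. This difference, germ minus somatic, was tested over all 12 libraries. Of the 31 members, 2 were called lower, Akr1cl and Fshr, beside 0.414% of 20551 genes, and Fshr passed the count filter only through the somatic libraries. With at least 10 counts required in every library, 1 member was called, Akr1cl, beside 140 of 13134 genes called lower. Akr1cl (chr1:65012689-65032759) had 472, 517 and 495 CPM in dex somatic and 544, 466 and 525 CPM in saline somatic libraries, which overlap, and 1.2, 1.37 and 2.70 CPM in dex germ against 3.95, 4.22 and 3.77 CPM in saline germ libraries. Its log2 fold change was -0.02 in somatic and -1.19 (edgeR adjusted p = 0.0877) in germ cells, and the difference was -1.15 (SE 0.238, edgeR adjusted p = 0.0330). Its germ to somatic ratio was 0.355% ± 0.166 in dex and 0.778% ± 0.0450 in saline. It is 1 of the 19 genes under 3%, a limit set after the values were seen. A lower ratio in dex was found for 16 of the 19, Akr1cl among them. This count was not made over all genes, and its bearing on Akr1cl was not tested. In fits that left out 1 of the 12 libraries the call was kept in 4 and the adjusted p reached 0.107; it was lost without dex germ 1 or 2, any saline germ replicate, dex somatic 2 or 3 or saline somatic 3. Akr1cl shares 10% of its exon words with Gm8550.

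Fshr (chr17:88985170-89200612) had 0, 0 and 3 counts in dex germ libraries and 13, 12 and 8 counts in saline germ libraries. Scaled to library size, the 3 dex counts against 33 saline counts gave a ratio of 0.0816, with an exact 95% counting interval of 0.016 to 0.26 that does not cover the spread between replicates. Fshr did not pass the count filter in the germ comparison, so its dex effect in germ cells was not tested. Somatic Fshr values, given above, overlapped. The fitted difference was -3.25 (SE 0.691, edgeR adjusted p = 0.0385), a value that depends on the prior count and rests on these few germ counts; it is given as a description. This call too was kept in 4 of 12 fits with 1 library left out, with an adjusted p of up to 0.12. It was lost without dex germ 1 or 2, saline germ 1 or 2, dex somatic 2 or any saline somatic replicate. For Inha the difference was -0.66 (adjusted p = 0.0669), for Clu -0.50 (0.0822) and for Amh -0.70 (0.179), from edgeR.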

How the data were processed

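RNA-seq was analysed for 12 libraries of sorted cells from testes at PN1, 3 in each of 4 groups taken from the sample labels. The authors selected polyA RNA, sequenced it, aligned the reads to mm10 with HISAT2 2.0.5 and counted them with featureCounts 1.5.0-p3, per the submitters' processing notes. The deposited count table holds raw counts per gene with no normalization, and the authors also deposited FPKM, which scale counts to gene length and library size. The deposited result tables of DESeq2 1.20.0 (normalized counts, fold changes and p-values) were not used. The strand setting and the annotation release of the counting are not given in the sources used here. GENCODE M21, used to find shared words and overlapping exons, holds 99.9% of the identifiers, with the same coordinates for 98.3% of those found.

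Calculations used R 4.3.3, edgeR 4.0.16, limma 3.58.1 and DESeq2 1.42.0. Raw counts of the 6 libraries compared were fitted with the quasi-likelihood test of edgeR (TMM, filterByExpr with a minimum count of 10), and the difference between populations over all 12. A gene was called at a Benjamini-Hochberg adjusted p, over all genes tested, of at most 0.05. SE is the log2 fold change divided by the square root of F. CPM use TMM over 12 libraries. All 31 Sertoli genes are named whatever their values, with full statistics for those called; of the 11 other lists, genes called in somatic cells are named. The tests were tried on simulated counts. The members and lists were chosen with earlier results of these data known. Alternatives were other scaling, other count filters, DESeq2, limma on log2(FPKM + 0.1), a replicate block and leaving out each library. Replicates are pools that the labels call biological; no 2 libraries of a group matched within sampling noise. The ratio of the Fshr counts has an exact (Clopper-Pearson) interval, which covers counting error only.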

Additional observations from a re-analysis of the deposited data

Results flagged for a closer look

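Akr1cl and Fshr stood out because the difference between the dex effects in germ and somatic cells passed the test. On the log2 scale the difference, germ minus somatic, was -1.15 for Akr1cl and -3.25 for Fshr (edgeR adjusted p = 0.0330 and 0.0385). In germ cells a library held at most 90 counts of Akr1cl and 13 of Fshr. Fshr passed the count filter only through the somatic libraries and was not testable in germ cells alone, so its value is a description and no support for a difference. The germ to somatic ratio of Akr1cl was 0.355% in dex and 0.778% in saline. It is 1 of the 19 genes under 3%, of which 16, Akr1cl among them, had a lower ratio in dex. That count was not made over all genes. Under a replicate block the adjusted p was 0.0558 and 0.0832, and on FPKM with limma it was 0.149 and 0.118.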

How the results depend on the processing

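Scaling by DESeq2 size factors kept each count of called genes and members within 1.5 times. With no filter on low counts, 1061 genes were called in somatic cells, 767 in germ cells and 706 for the difference. The main analysis had 655, 231 and 170. Without the filter 1 member was called higher in somatic cells, beside 671 of 27937 genes. In germ cells 5 members were called lower, beside 401 of 33910 genes, and for the difference 7, beside 303 of 35743. With DESeq2, 675 were called in germ cells and 620 for the difference. By this test 1 member was higher in somatic cells, beside 600 of 16018 genes. In germ cells 4 members were lower, beside 325 of 14842 genes, and for the difference 5, beside 268 of 18415. On FPKM with limma the counts were 251, 6 and 57. In somatic cells 1 member was lower, beside 34 of 16766 genes, and 0 were in germ cells and for the difference. With at least 10 counts in every library the difference had 262 calls. Called lower were 140 of 13134 genes and 1 member. In germ against somatic cells, 0 members were called higher. With the replicate block, 65 genes were called in germ cells and 90 for the difference. In somatic cells 1 member was higher, beside 473 of 16766 genes, and 0 were lower in germ cells or for the difference. Correlations between the deviations of same-numbered libraries ran from -0.0879 to 0.0444. In saline, each germ library correlated best with the somatic library of its own number (0.0374, 0.0444 and 0.0367). In dex, same-numbered germ and somatic libraries had -0.00295, -0.0165 and -0.0163. A larger value, 0.135, was found between dex germ replicate 2 and saline germ replicate 3, which differ in number and treatment. Values of the size seen in saline therefore do not show a shared pool. The labels do not say whether same-numbered libraries share a pool, and the main fits left them unpaired.

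With library totals, the germ to somatic ratio of the summed members was 2.26% in saline and 2.12% in dex (2.07% and 1.88% with TMM), the somatic calls split into 379 higher and 329 lower (459 and 196 with TMM), the germ calls into 149 higher and 66 lower (94 of 231 lower with TMM), the calls of the difference into 148 higher and 73 lower (85 of 170 lower with TMM), the median of all genes in germ against somatic cells was 0.21 (0.07 with TMM), and the log2 fold changes of Amh, Sox9 and Clu in somatic cells became -0.012, -0.045 and -0.0013. Leaving out 1 library gave 354 to 547 calls in somatic cells with 0 to 4 members lower and 0 to 1 higher, 49 to 265 calls in germ cells with 0 to 1 members lower, 79 to 172 calls for the difference with 0 to 3 members lower, and 1 to 2 members higher in germ than somatic cells. The somatic log2 fold changes of Amh (-0.034 to 0.12), Sox9 (-0.0446 to 0.063), Clu (-0.032 to 0.12) and Rhox8 (-0.027 to 0.34) spanned 0. Of 558 recomputed member fold changes, 487 kept direction and side of the threshold. A call was lost in 41 and gained in 22, and 8 changed direction. The 487 include fold changes called in neither fit, so they do not measure how stable the calls were. The cause of these differences was not tested. Fshr, with at most 13 counts in a germ library, could not be tested in germ cells alone.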

Other observations

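The keratins and Rhox5 were high in the same germ libraries, which was noticed after the values were seen and was not tested. Krt18 had 15.4, 35.8 and 19.2 CPM in dex germ and 15.9, 13.7 and 28.8 CPM in saline germ libraries. Krt8 had 9.97, 13.9 and 7.03 CPM in dex and 7.28, 4.90 and 12.6 CPM in saline germ libraries. Rhox5 had 5.68, 9.81 and 6.10 CPM in dex and 4.43, 4.85 and 8.87 CPM in saline germ libraries. For each of these genes, dex germ replicate 2 and saline germ replicate 3 were the highest of their group. Amh, in contrast, was lowest in dex germ replicate 2, at 5.11 CPM. Over all genes that passed the count filter, dex germ replicate 2 and saline germ replicate 3 also deviated alike from their group means (correlation 0.135). This was the highest correlation found between libraries of different groups. The pattern was not shown to be particular to the keratins and Rhox5. Across the 31 genes, which are not independent replicates, Spearman's rho of mean CPM between saline germ and saline somatic cells was 0.564.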
